A study of Mus musculus with 7 samples.

Results

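The 9 genes described here encode the subunits of the hypoxia-inducible factors (HIFs) and the enzymes that tie HIFs to oxygen. They were taken by name from a list of HIF alpha subunits (Hif1a, Epas1, Hif3a), their shared partner (Arnt), the ubiquitin ligase subunit Vhl, the prolyl hydroxylases (Egln1, Egln2, Egln3) and the asparaginyl hydroxylase Hif1an. All 9 were found among the 55401 genes of the count table, and all 9 passed the filter on low counts that kept 17465 genes for testing.

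The lungs came from male C57BL/6 mice aged 6 to 8 weeks and weighing 20 to 25 g. All had received bleomycin, a drug used in animals to provoke lung injury and fibrosis, as a single dose into the trachea. On day 7 after this dose, the mice were divided at random. The BLM group (n = 4) had bleomycin alone, and the BLM+HBO group (n = 3) also breathed hyperbaric oxygen (HBO). In HBO, animals breathe oxygen at raised pressure, here 2.5 ATA for 90 min a day over 14 days. Lungs were taken on day 21, and RNA of the right lobes was sequenced with 1 library per mouse. The sources differ on the BLM mice, which spent the same time in the unpressurised chamber according to the sample records and were left untreated according to the Supplementary methods. No mouse without bleomycin is among the libraries analysed here, and the study left out mice that had lost too little weight after instillation.

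In cells with enough oxygen, the prolyl hydroxylases mark HIF alpha subunits, VHL recognises the mark, and the subunit is degraded. When oxygen is short the mark is not made, and the alpha subunit pairs with ARNT and binds hypoxia response elements of genes for glycolysis, angiogenesis and iron handling. This control acts on the protein, so the RNA values below give the supply of each transcript and not HIF activity. In the lung, Epas1 is best known from endothelial cells and alveolar type 2 cells.

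Total counts ran from 18436336 to 19002242 in BLM and from 18157161 to 26365969 in BLM+HBO. Marker genes of other cell types were read from the same fit. Endothelial, alveolar type 1 and alveolar type 2 markers were present in every mouse. Of the genes tested in each marker list, lower levels in BLM+HBO at unadjusted P below 0.05 (edgeR) were found for 8 of 10 fibroblast, 7 of 10 macrophage and monocyte, 3 of 6 proliferation, 1 of 12 endothelial and 1 of 7 alveolar type 1 genes. Higher levels were found for 10 of 11 heart muscle, 3 of 8 lymphocyte, 1 of 8 alveolar type 2 and 1 of 10 fibroblast genes. None of the neutrophil, adipocyte and erythroid genes passed in either direction. On the first principal component, BLM+HBO 2 lay at -0.996, next to the BLM mice (-47.6 to -6.08) and away from BLM+HBO 1 and 3 (54.8 and 37.8). In whole tissue, fewer cells of a type and less RNA per cell cannot be told apart.

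Among the 9 genes, only Hif1a passed unadjusted P below 0.05, and it was lower in BLM+HBO. Its mean level was 0.72 times that of BLM, short of the 1.5-fold limit set for differentially expressed genes (DEGs). Over all genes tested, 10.7% passed unadjusted P below 0.05 in either direction, 5.11% as higher and 5.54% as lower, and 6.29% were DEGs. The 1 of 9 is thus close to the background. None of the 9 passed an adjusted P below 0.05, nor did any other gene by edgeR, while 1861 genes passed at unadjusted P below 0.05, and DESeq2 on the same genes gave 123 at adjusted P below 0.05 and limma 0.

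Levels are given first per kilobase of exon (RPKM), the scale on which genes can be set beside each other. Epas1, which encodes HIF-2 alpha, stood far above the others, with a mean of 338 RPKM over the 7 mice and a level above that of 99.5% of the genes tested. Egln2 (28.1 RPKM), Egln1 (24.4 RPKM) and Hif1a (20.0 RPKM) followed. Vhl (13.5 RPKM), Hif1an (12.4 RPKM) and Arnt (10.4 RPKM) came next. Egln3 had 1.87 RPKM and Hif3a 0.573 RPKM. Neighbours in this order were set apart, with no overlap of their ranges over the mice, at 3 steps: Epas1 above Egln2, Hif1an above Arnt and Arnt above Egln3. The ranges of the other neighbours overlapped, although Egln1 exceeded Hif1a, Hif1a exceeded Vhl and Egln3 exceeded Hif3a in each of the 7 mice. This order rests on all exon bases of a gene. For Arnt these are 8007 bases beside 4325 in its longest transcript, and for Hif1a 5896 beside 4724. With the shorter lengths both would stand higher, so Vhl and Hif1an above Arnt and Egln1 above Hif1a depend on the length used.

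**Figure D1:**
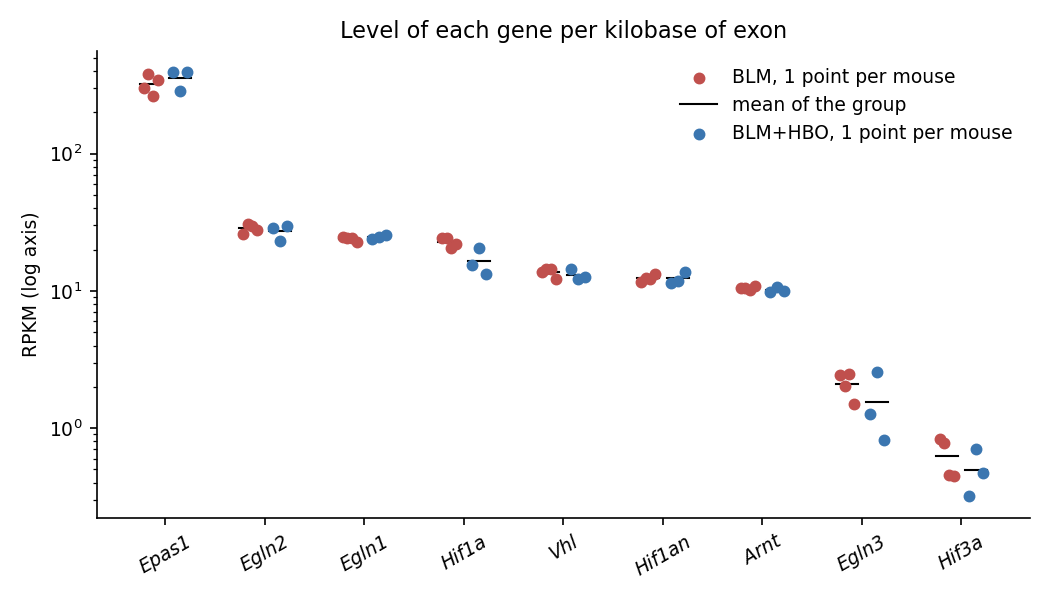
RPKM of each gene (log axis) in order of its mean, with 1 point per mouse for BLM (red) and BLM+HBO (blue) and a line at the mean of each group. Epas1 lies above all others in every mouse, and Egln3 and Hif3a lie below all others.

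Hif1a encodes HIF-1 alpha, the oxygen-regulated subunit found in most cell types (chromosome 12, 73901375 to 73947530, plus strand, GRCm38). Its level was 144, 143, 120.6 and 129.6 CPM (counts scaled to library size) in BLM 1 to 4, and 91.1, 120.4 and 78.6 CPM in BLM+HBO 1 to 3. The 3 BLM+HBO mice lay below all BLM mice, but BLM+HBO 2 did so by 0.253 CPM only. Ranges that did not overlap were found for 8.77% of all genes tested. With RLE in place of TMM scaling factors, BLM+HBO 2 lay 0.719 CPM above BLM 3. With upper-quartile factors, the lowest BLM mouse stood 1.75 CPM above the highest BLM+HBO mouse, so this separation depends on the scaling.

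The mean was 134 ± 11.3 CPM in BLM (SD, n = 4) and 96.7 ± 21.4 CPM in BLM+HBO (SD, n = 3). The log2 fold change was -0.47 (SE 0.15, 95% interval -0.81 to -0.14), with an adjusted P of 0.423 by edgeR. Unadjusted P stayed below 0.05 with each mouse left out in turn, but only just without BLM+HBO 3 (edgeR unadjusted P = 0.0492). The log2 fold change was -0.66 without BLM+HBO 2 (edgeR adjusted P = 0.0508) and -0.35 without BLM+HBO 3. Over all alternatives, adjusted P ran from 0.0508 to 0.802. Of the exon bases of Hif1a, 8.11% are shared with the antisense gene Gm15283 or with Gm49321. For these the table held 0 to 21 reads and 0 reads per mouse. The effect of the overlap on the Hif1a count was not tested.

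**Figure D2:**
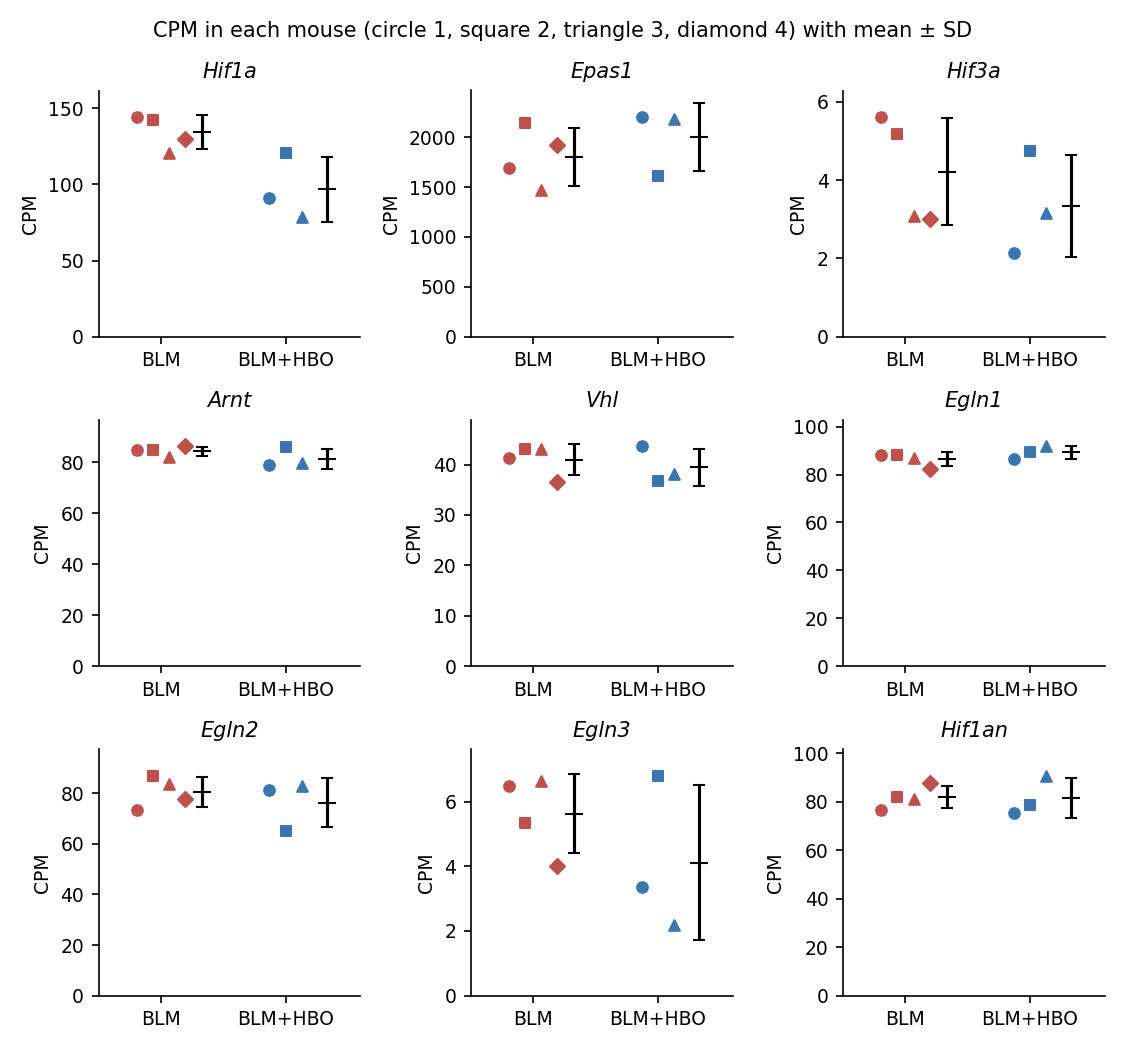
CPM of the 9 genes in each mouse (vertical axes from 0), with BLM in red and BLM+HBO in blue, symbols for the mouse number and bars for the mean ± SD. BLM+HBO 2 (blue square) is the BLM+HBO mouse nearest to BLM for Hif1a and the highest of all mice for Egln3.

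Cell markers moved with Hif1a. Macrophage and monocyte markers (10 genes, none at 0 in any mouse) summed to 1710 to 3385 CPM in BLM and to 1264 to 1834 CPM in BLM+HBO. Fibroblast markers (10 genes, none at 0) summed to 6749 to 10788 CPM in BLM and to 2847 to 7126 CPM in BLM+HBO. Alveolar type 2 markers (8 genes, none at 0) went the other way, with 9348 to 17022 CPM in BLM and 11780 to 28743 CPM in BLM+HBO. BLM+HBO 1 and 3, which had the lowest Hif1a, also had the lowest sums of macrophage and fibroblast markers and the highest sums of alveolar type 2 markers. The part of these cell markers in the Hif1a difference was not tested.

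**Figure D3:**
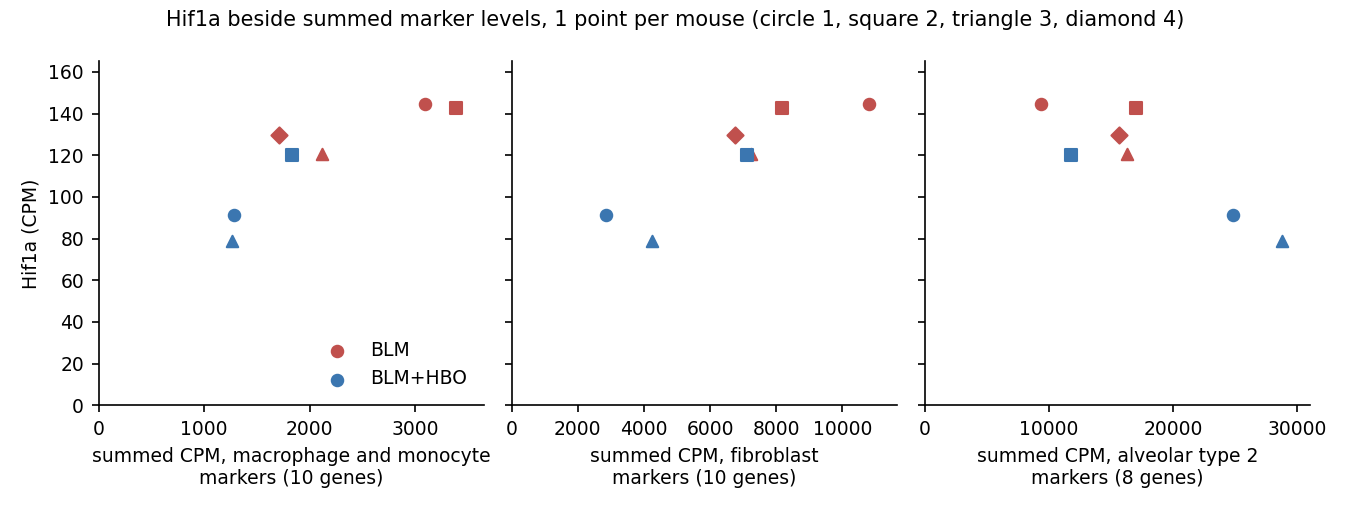
Hif1a (CPM, vertical axis) against the summed CPM of macrophage and monocyte, fibroblast and alveolar type 2 markers (horizontal axes) in each of the 7 mice, with BLM in red and BLM+HBO in blue. BLM+HBO 1 and 3 sit apart from the other mice in all panels, and BLM+HBO 2 sits beside BLM 3 and 4 in the macrophage and fibroblast panels.

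The letters at the core of the hypoxia response element, ACGTG and GCGTG, were searched on both strands in the 250 bases before each start site (RefSeq, GRCm38.p6). An entry was found for 8 of the 9 genes, with Epas1 missing. ACGTG was found for 4 of them (Hif1a, Egln1, Egln2 and Egln3), against 16.6% of all 32851 promoter entries. Egln2 has a further entry that holds no ACGTG. Members are counted here by gene, while the shares are of entries. GCGTG was found for 4 (Hif3a, Arnt, Egln1 and Egln2), against 28.2% of all entries. Vhl and Hif1an had neither. Matches are letters only, and no binding was measured. The stretches of Hif1a, the only 1 of the 9 genes at unadjusted P below 0.05, and of the hydroxylases Egln2 and Egln3 are shown from 20 bases before the first to 20 bases after the last match, 5′ to 3′ on the strand of the gene and with ACGTG or its reverse complement in capitals. In Hif1a, the first capitals hold CACGTG, which reads as ACGTG on either strand. The Egln1 match lies in what GENCODE annotates as the first exon and is not printed.
Hif1a, chr12:73907712-73907821, plus strand: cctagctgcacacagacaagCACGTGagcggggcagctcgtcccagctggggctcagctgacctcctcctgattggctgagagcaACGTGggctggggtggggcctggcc
Egln2, chr7:27166826-27166870, minus strand: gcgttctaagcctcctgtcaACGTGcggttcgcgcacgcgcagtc
Egln3, chr12:54204079-54204123, minus strand: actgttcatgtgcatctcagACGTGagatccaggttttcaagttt
The 3 stretches end 45, 23 and 204 bases before the start site. That of Hif1a lies in the first intron of a longer transcript in GENCODE.

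Epas1 did not differ beyond the spread between mice (chromosome 17, 86753700 to 86833410, plus strand). The levels in BLM 1 to 4 were 1696, 2145, 1469 and 1922 CPM, and those in BLM+HBO 1 to 3 were 2205, 1612 and 2188 CPM. BLM+HBO 1 and 3 were the highest of all mice, while BLM+HBO 2 lay below BLM 1, so the groups overlapped. The means were 1808 ± 291 CPM (SD, n = 4) and 2002 ± 338 CPM (SD, n = 3). By edgeR the log2 fold change was 0.15 (SE 0.18, 95% interval -0.25 to 0.55, adjusted P = 0.799), an interval that ends short of 1.5-fold on both sides. Endothelial markers (12 genes) summed to 3288 to 4108 CPM in BLM and to 3402 to 4073 CPM in BLM+HBO, with the sums in BLM+HBO inside the BLM range. Of the 12, 11 were higher in mean in BLM+HBO, none of which passed the test, and the median log2 fold change of the list was 0.24. The exception was Vwf, which was lower at unadjusted P below 0.05 (edgeR), with means of 1011 CPM in BLM and 760.1 CPM in BLM+HBO. It had the highest CPM of the 12 and so weighed most in the sums. Per kilobase it was not the highest, at 56.3 RPKM beside 332 RPKM for Cldn5. The part of the endothelial and alveolar type 2 markers in the level of Epas1 was not tested. With 1 mouse left out, the log2 fold change of Epas1 ran from 0.06 (without BLM 3) to 0.28 (without BLM+HBO 2).

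The balance of the alpha subunit transcripts lay outside the BLM range in 2 of the 3 BLM+HBO mice. The RPKM ratio of Epas1 to Hif1a was 12.4, 15.9, 12.8 and 15.6 in BLM 1 to 4 and 25.5, 14.1 and 29.4 in BLM+HBO 1 to 3. BLM+HBO 1 and 3 were above every BLM mouse, and BLM+HBO 2 was inside the BLM range. Hif1a made up 6.65% ± 0.798 of the summed alpha subunit RPKM in BLM (SD, n = 4) and 4.55% ± 1.79 in BLM+HBO (SD, n = 3). Epas1 made up 93.2% ± 0.833 and 95.3% ± 1.86, and Hif3a at most 0.255% in any mouse. With the length of the longest transcript in place of the exon length, the mean ratio was 11.5 in BLM and 18.7 in BLM+HBO. No test was made on this ratio or on these shares.

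Hif3a encodes HIF-3 alpha, several isoforms of which restrain the other alpha subunits (chromosome 7, 17031507 to 17062427, minus strand). Between 40 and 102 reads per mouse gave 5.62, 5.19, 3.07 and 3.00 CPM in BLM and 2.13, 4.74 and 3.15 CPM in BLM+HBO. BLM 1 and 2 were the highest and BLM+HBO 1 the lowest, and the groups overlapped. The means were 4.22 ± 1.38 CPM (SD, n = 4) and 3.34 ± 1.31 CPM (SD, n = 3). The log2 fold change of -0.33 did not pass (SE 0.36, edgeR adjusted P = 0.762). Its interval of -1.13 to 0.46 holds a change of 1.5-fold downwards, which these mice could not resolve. With 1 mouse left out, the log2 fold change ran from -0.67 (without BLM+HBO 2) to -0.10 (without BLM+HBO 1).

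Arnt, the stable beta subunit that every HIF alpha subunit needs for binding DNA, varied least among the subunits (chromosome 3, 95434388 to 95497240, plus strand). BLM 1 to 4 had 84.7, 84.7, 81.9 and 86.2 CPM, and BLM+HBO 1 to 3 had 78.8, 86.0 and 79.5 CPM. BLM+HBO 1 and 3 were the lowest of the mice, and BLM+HBO 2 was among the BLM mice. With means of 84.4 ± 1.80 CPM (SD, n = 4) and 81.4 ± 3.92 CPM (SD, n = 3), the log2 fold change was -0.05 (SE 0.09, 95% interval -0.25 to 0.15, edgeR adjusted P = 0.869).

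Vhl encodes the part of the ubiquitin ligase that recognises hydroxylated HIF alpha (chromosome 6, 113623959 to 113631633, plus strand). Its levels were 41.4, 43.2, 43.0 and 36.4 CPM in BLM and 43.6, 36.7 and 38.2 CPM in BLM+HBO. The lowest mouse was BLM 4 and the highest BLM+HBO 1, so that the range of one group nearly covered the other. The means were 41.0 ± 3.14 CPM (SD, n = 4) and 39.5 ± 3.65 CPM (SD, n = 3), with a log2 fold change of -0.05 (SE 0.11, 95% interval -0.31 to 0.20, edgeR adjusted P = 0.897).

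The prolyl hydroxylases are known as PHD2 (Egln1), PHD1 (Egln2) and PHD3 (Egln3). Egln1, the main HIF hydroxylase in most cells (chromosome 8, 124908587 to 124949324, minus strand), had 88.3, 88.1, 87.0 and 82.2 CPM in BLM and 86.6, 89.3 and 91.8 CPM in BLM+HBO. It had the smallest spread of the 9 genes, with a coefficient of variation of 3.35% over the 7 mice, and the groups overlapped. The means were 86.4 ± 2.86 CPM (SD, n = 4) and 89.2 ± 2.60 CPM (SD, n = 3), and the log2 fold change was 0.05 (SE 0.09, 95% interval -0.15 to 0.24, edgeR adjusted P = 0.884).

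Egln2 (chromosome 7, 27158658 to 27166802, minus strand) had 73.2, 86.8, 83.7 and 77.8 CPM in BLM and 81.1, 65.0 and 82.6 CPM in BLM+HBO. The lowest level was that of BLM+HBO 2, and the other 2 BLM+HBO mice lay within the BLM range. The means were 80.4 ± 6.04 CPM (SD, n = 4) and 76.3 ± 9.75 CPM (SD, n = 3), and the log2 fold change was -0.08 (SE 0.12, 95% interval -0.34 to 0.19, edgeR adjusted P = 0.849). Only 11 of its exon bases are shared with another gene.

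Egln3, a hydroxylase that is itself a well-known HIF target (chromosome 12, 54178981 to 54203860, minus strand), had the widest relative spread, 36.7% over the 7 mice. From 58 to 142 reads per mouse, its levels were 6.50, 5.35, 6.64 and 4.00 CPM in BLM and 3.35, 6.80 and 2.17 CPM in BLM+HBO. BLM+HBO 1 and 3 were the lowest of all mice and BLM+HBO 2 the highest. The means were 5.62 ± 1.23 CPM (SD, n = 4) and 4.11 ± 2.40 CPM (SD, n = 3), and the log2 fold change of -0.46 did not pass (SE 0.38, 95% interval -1.31 to 0.39, edgeR adjusted P = 0.687). Without BLM+HBO 2 it was -1.03 and passed unadjusted P below 0.05 (edgeR adjusted P = 0.167), so that 1 mouse decides the call. Egln3 made up 2.88% to 4.59% of the summed RPKM of the 3 hydroxylases in BLM, and 2.32%, 5.04% and 1.46% in BLM+HBO 1 to 3.

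Hif1an encodes factor inhibiting HIF, which hydroxylates an asparagine of HIF alpha and so blocks its binding of coactivators (chromosome 19, 44562850 to 44576274, plus strand). The levels were 76.7, 81.7, 80.9 and 87.8 CPM in BLM and 75.3, 78.5 and 90.6 CPM in BLM+HBO. Both the lowest and the highest mouse were in BLM+HBO. The means were 81.8 ± 4.56 CPM (SD, n = 4) and 81.5 ± 8.08 CPM (SD, n = 3), and the log2 fold change was -0.01 (SE 0.10, 95% interval -0.24 to 0.23, edgeR adjusted P = 0.990). Its sign changed with the processing.

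The 95% intervals of 6 of the 9 genes lay within a 1.5-fold change in both directions. These were Epas1, Arnt, Vhl, Egln1, Egln2 and Hif1an. The intervals of Hif1a, Hif3a and Egln3 reached past 1.5-fold downwards. The median log2 fold change of the 9 was -0.05, beside 0.01 over all genes tested.

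**Figure D4:**
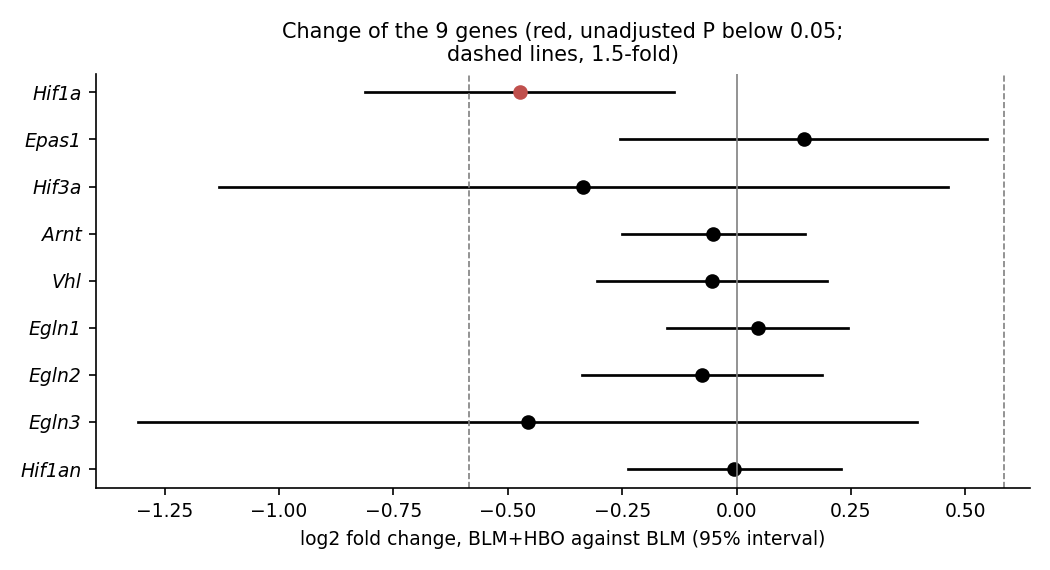
Log2 fold change of each gene in BLM+HBO against BLM with its 95% interval from the edgeR fit, dashed lines at 1.5-fold and red for unadjusted P below 0.05. The interval of Hif1a alone leaves out 0, and those of Hif3a and Egln3 are the widest.

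Across the 7 mice, Pearson's r between pairs of the 9 genes ran from -0.79 to 0.84 on log2 CPM. The pairs with the largest r in size, picked after all pairs were seen, were Hif1a and Arnt (0.84, Spearman's rho 0.57), Hif1a and Egln3 (0.82, rho 0.43) and Epas1 and Egln3 (-0.79, rho -0.89). Other pairs lay near 0, such as Epas1 and Egln1 (r = 0.07) and Arnt and Hif1an (r = -0.000597). These points share the scaling and the difference between the groups, so they are given as a description. The genes with a mean of at least 10 CPM whose pattern was most like that of Hif1a, out of 10946, were B4galt1 (r = 0.989), Ank (r = 0.986) and Pros1 (r = 0.982). Those most like Epas1 were Cpeb3 (r = 0.973), Mme (r = 0.966) and Pde7b (r = 0.964). For Hif3a they were Rpl22l1 (r = 0.982), Eml1 (r = 0.976) and Smad7 (r = 0.971), and for Egln3 Ccl12 (r = 0.982), Cct8 (r = 0.967) and Ifi207 (r = 0.966). Spearman's rho of these genes ran from 0.857 to 0.964. As the highest of 10946 values over 7 mice, these r are large by selection, and whether they exceed the level expected from selection was not tested.

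Around these 9 genes, 54 further genes of the pathway were listed and 51 were tested. Of the 51, 1 was lower in BLM+HBO at unadjusted P below 0.05 and none was higher, beside 5.54% and 5.11% of all genes tested. That 1 was Ldha, the lactate dehydrogenase subunit of glycolysis and a HIF target. Its level was 506, 491, 541 and 488 CPM in BLM and 353, 468 and 394 CPM in BLM+HBO. All BLM+HBO mice lay below all BLM mice, a separation found for 8.77% of all genes tested, and the log2 fold change was -0.32 (SE 0.13, edgeR adjusted P = 0.440). This call was lost when BLM 3 (-0.29), BLM+HBO 1 (-0.23) or BLM+HBO 3 (-0.31) was left out, with adjusted P between 0.135 and 0.802 over all alternatives. Ldha has near-identical processed copies in the mouse genome, so its count is less certain.

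The 21 HIF targets tested, the hydroxylases aside, had a median log2 fold change of -0.21 beside 0.01 over all genes. In mean, 15 were lower and 6 higher, beside 8523 lower among all 17465 genes tested. Only Ldha of these targets passed the test. Of the 21, 6 are also in the 15-gene HIF signature used by the study. With HBO, the study reported a lower score of that signature, and lower Adm and Slc2a1 by qPCR. The targets of highest RPKM besides Ldha were Vegfa, the vascular growth factor, at 0.28 (SE 0.20, edgeR adjusted P = 0.626), Pgk1, a glycolytic kinase, at -0.21 (SE 0.11, edgeR adjusted P = 0.542), and Ddit4, an inhibitor of mTOR signalling, at -0.39 (SE 0.27, edgeR adjusted P = 0.625).

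None of the genes listed as partners or regulators of the 9 genes passed. The ligase partners of VHL (4 of 4 lower in mean) had a median log2 fold change of -0.10, with Elob at -0.24, Rbx1 at -0.01 and Eloc at -0.04. Of the bHLH-PAS genes listed beside Arnt, not all of which pair with ARNT, 6 of 9 were tested. Their median was -0.39, with Ahr at 0.01, Npas2 at -0.62 and Npas4 at 0.06. That median lay between Ahrr (-0.43) and Npas1 (-0.36), 2 genes of low level. Their means were 0.482 and 0.882 CPM in BLM and 0.342 and 0.682 CPM in BLM+HBO. The coactivators and their inhibitors (3 of 6 lower in mean) had a median of 0.01, with Cited2, which competes with HIF alpha for coactivators, at 0.31, Ep300 at 0.09 and Ncoa1 at -0.10. The regulators of HIF and PHD turnover (5 of 14 lower in mean) had a median of 0.06, with the chaperones Hsp90ab1 at 0.00 and Hsp90aa1 at 0.08 and the scaffold Rack1 at -0.19.

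**Figure D5:**
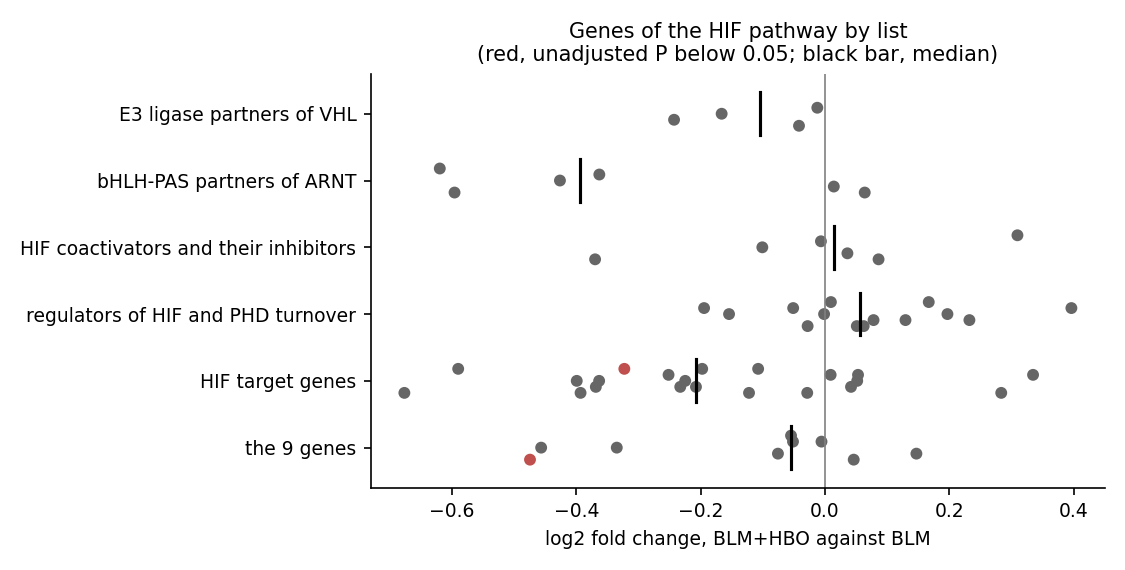
Log2 fold change in BLM+HBO against BLM of each tested gene of the pathway lists and of the 9 genes, 1 point per gene, with a black bar at the median of each list and red for unadjusted P below 0.05. Hif1a and Ldha are the only red points, and the median of the HIF targets is -0.21.

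Leaving out BLM+HBO 2 raised the number of calls over all genes, the pathway genes among them. Without that mouse, 15.9% of all genes tested passed unadjusted P below 0.05, as did 2 of the 9 genes (Hif1a and Egln3) and 8 of the 51 pathway genes. The 8 of 51 is close to the share over all genes tested in that fit, which was not split by direction. The 8 were named after their values were seen. Of these, 6 were HIF targets, all lower: Ankrd37 at -2.14, Ndrg1 at -0.80, Adm at -0.69, Slc2a1 at -0.65, Ldha at -0.44 and Pgk1 at -0.31 on the log2 scale. The other 2, Cited2 at 0.52 and P4htm at 0.62, were higher. In BLM+HBO 2 itself, Ankrd37 stood at 35.3 CPM and Ndrg1 at 90.6 CPM, above every BLM mouse (18.9 to 34.3 CPM and 70.4 to 84.4 CPM). Leaving out this mouse was 1 of 7 such fits, and nothing in the sample records sets it apart.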

How the data were processed

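The deposited values are raw counts per gene, which the authors made with featureCounts at its default settings (no use of strand) after trimming (Trim Galore) and alignment to GRCm38 (HISAT2), and did not normalize. Symbols came from GENCODE vM21. Genes were kept with filterByExpr (minimum count 10, minimum total 15), scaled by TMM (factors 0.964 to 1.04) and tested with edgeR 4.0.16 (quasi-likelihood, R 4.3.3, common biological coefficient of variation 0.222). CPM is the count relative to the scaled library size, RPKM is CPM per kilobase of the length in the table, and P was adjusted by Benjamini-Hochberg over all 17465 genes. DEGs had unadjusted P below 0.05 and a fold change above 1.5. Intervals rest on the error of the edgeR estimate.

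The genes and lists were chosen with earlier results of these data known. All 9 genes were named. Pathway genes were named where unadjusted P was below 0.05, with up to 3 others per list of highest mean RPKM. The 3 genes most like Hif1a, Epas1, Hif3a and Egln3 were named by Pearson's r over genes with a mean of at least 10 CPM. Marker genes were counted by list and summed. Alternatives were DESeq2 1.42.0, limma 3.58.1, RLE and upper-quartile factors, other filters, the robust option, a replicate block, a fold change above 2, other gene lengths and leaving out each mouse.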

Additional observations from a re-analysis of the deposited data

How the results depend on the processing

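With 4 and 3 mice, the 95% intervals of genes such as Arnt and Egln1 lay within 1.5-fold, while those of Hif1a, Hif3a and Egln3 did not. Hif3a and Egln3 had at most 142 reads per mouse, and coefficients of variation of 34.4% and 36.7% over the 7 mice. The part of the read number in these intervals was not tested. Hif1a kept its direction and its unadjusted P below 0.05 under all 15 alternatives (log2 fold change -0.66 to -0.35). The highest of these was an edgeR unadjusted P of 0.0492 without BLM+HBO 3. Over the 9 genes, 128 of 135 fits kept direction and side of the threshold, 1 newly passed it (Egln3 without BLM+HBO 2) and 6 changed sign. Hif1an changed sign with upper-quartile factors (0.0187) and with a replicate block (0.0260), and ran from -0.0934 to 0.0481 with 1 mouse left out. Egln2 ran from -0.143 to 0.0253 with 1 mouse left out, the highest without BLM+HBO 2. For Hif1a, the lowest BLM mouse minus the highest BLM+HBO mouse was -0.719 CPM under RLE factors and 1.75 CPM under upper-quartile factors. Both of these comparisons were chosen after seeing the data.

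Without the filter on low counts there were 1940 DEGs, 3008 genes at unadjusted P below 0.05, 387 at adjusted P below 0.05 and 4 pathway genes. A fold change above 2 left 509 DEGs, and DESeq2 gave 123 genes at adjusted P below 0.05. With each mouse left out, DEGs ran from 659 to 1914 (1098 with all mice), genes at unadjusted P below 0.05 from 1017 to 2851, genes at adjusted P below 0.05 from 0 to 267, the 9 genes from 1 to 2 passing and pathway genes from 0 to 8. The high end was always without BLM+HBO 2. Without BLM+HBO 1 there were 659 DEGs and 1017 genes at unadjusted P below 0.05, without BLM 1 706 and 1175, and without BLM 2 1220 at unadjusted P below 0.05. The cause was not tested. With the replicate block, 2 pathway genes passed and Ldha did not (edgeR adjusted P = 0.473). Same-numbered mice deviated with correlations of -0.00797, -0.0660 and 0.161, and only BLM+HBO 3 correlated best with the BLM mouse of its number, so the numbers were not taken as pairs.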
